A study of Mus musculus with 6 samples.

Results

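Genes of the TGF-beta family and of its signalling route were followed in ovarian tumours of mice that were given the progesterone receptor blocker RU486 or a placebo. The set is a list of 45 gene symbols for ligands, receptors, SMAD proteins, antagonists and ID target genes, and its probes were found by the gene symbol of the platform annotation. Of these genes 44 were measured, by 50 probes, among 21874 measured genes in all, and Gdf15 was not analysed here. The 6 arrays hold tumour RNA from 3 placebo and 3 RU486 samples, labelled Pgrcre/+mPgrLsL/+ in both groups (Pgrcre/+PgrBLsL/+ in the series' design text), so placebo and RU486 mice alike carry the progesterone receptor B transgene, switched on by a Cre recombinase in the cells where the Pgr gene is active. Ovarian tumours measured 0.5 to 1 cm when a slow-release pellet of either kind was given, and tissue was taken after 24 h. RU486 (mifepristone) blocks the progesterone receptor and also the glucocorticoid receptor. The labels used here give neither ages nor whether each array is a separate mouse, and p-values then measure only the spread between these samples.

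Ligands of the TGF-beta family are secreted as dimers. They bind a type II receptor, which activates a type I receptor, and this phosphorylates SMAD2 and SMAD3 (for TGF-beta and activin) or SMAD1, SMAD5 and SMAD9 (for BMPs and AMH). Phosphorylated SMADs enter the nucleus with SMAD4, and the inhibitory SMAD6 and SMAD7 and extracellular traps such as follistatin, noggin and gremlin limit the signal. In the ovary, granulosa cells make inhibins, activins, follistatin and AMH, and oocytes make GDF9 and BMP15.

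Promoters of 31 of the 44 measured genes were at hand from RefSeq (assembly GRCm38.p6), as 300 bases from 250 before to 50 after the annotated start. Fst, Tgfb3 and Id1, whose arrays parted by treatment, had no promoter there and are not covered. Bmp4 and Smad3 are shown because their arrays parted by treatment in opposite directions, and Id2 and Id3 because ID genes are textbook SMAD targets. Each runs 5′ to 3′ along the strand of its gene, and capitals mark matches to any of the motifs named below.
Bmp4, GRCm38.p6 chr14:46390620-46390919, minus strand: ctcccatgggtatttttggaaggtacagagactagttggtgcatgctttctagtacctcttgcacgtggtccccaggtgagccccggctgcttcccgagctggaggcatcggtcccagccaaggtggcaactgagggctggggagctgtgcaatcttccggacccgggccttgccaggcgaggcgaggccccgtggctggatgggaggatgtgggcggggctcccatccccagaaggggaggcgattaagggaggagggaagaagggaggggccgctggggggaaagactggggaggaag
Smad3, GRCm38.p6 chr9:63757945-63758244, minus strand: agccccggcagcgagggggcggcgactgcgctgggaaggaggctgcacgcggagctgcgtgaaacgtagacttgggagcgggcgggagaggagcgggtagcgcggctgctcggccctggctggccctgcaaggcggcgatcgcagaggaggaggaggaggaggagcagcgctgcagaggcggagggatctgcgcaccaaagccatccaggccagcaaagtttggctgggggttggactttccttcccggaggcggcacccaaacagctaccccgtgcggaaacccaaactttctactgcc
Id2, GRCm38.p6 chr12:25096043-25096342, minus strand: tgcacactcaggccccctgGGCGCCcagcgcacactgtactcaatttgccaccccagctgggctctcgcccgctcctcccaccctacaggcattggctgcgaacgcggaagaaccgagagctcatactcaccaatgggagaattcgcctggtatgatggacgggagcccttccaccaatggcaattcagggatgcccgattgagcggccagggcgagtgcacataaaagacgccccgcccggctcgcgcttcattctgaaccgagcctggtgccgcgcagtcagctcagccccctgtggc
Id3, GRCm38.p6 chr4:136143572-136143871, plus strand: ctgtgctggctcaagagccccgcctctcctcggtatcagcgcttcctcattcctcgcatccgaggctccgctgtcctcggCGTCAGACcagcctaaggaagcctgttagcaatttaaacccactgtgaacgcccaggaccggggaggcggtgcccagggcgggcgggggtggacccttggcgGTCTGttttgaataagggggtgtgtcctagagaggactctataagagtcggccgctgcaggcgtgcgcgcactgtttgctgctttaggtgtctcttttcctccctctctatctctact

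Motifs were searched on both strands in all 32851 promoters of the table. The SMAD box CAGAC was found in 16 of the 36 promoters of the measured genes (44.4%) and in 49.6% of all promoters. For the GC-rich SMAD site GGCGCC the shares were 30.6% (11 promoters) and 11.9%, and GC content, which differs between promoters, was not taken into account. TGTTCT, the half-site that progesterone and glucocorticoid receptors bind, was found in 11.1% and 19.0%, in Bmpr2, Fstl3, Inhbb and Smad6, and the full palindromic element in 0 of the 36 promoters and in 0.0487% of all. TGACG, a half-site of the cyclic AMP response element, was found in 16.7% and 20.8%. The Bmp4 and Smad3 windows hold no match to these 5 motifs. Id2 has a GGCGCC, and Id3 has CAGAC in both orientations and a TGACG that overlaps the first of them. A match is a run of letters and not a known site.

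Each deposited value is a score: a probe was centred and scaled over the 6 arrays to a mean of 0 and an SD of 1, so it gives no brightness, no fold change and no comparison of levels between genes. Brighter probes were assumed to have higher scores, since the sources used here do not state the direction. The standardised difference subtracts the placebo mean from the RU486 mean, in units of a probe's SD, and cannot pass 1.83 in size for a single probe. Probes of a gene were averaged, and each of 21874 genes was tested with limma's ordinary statistic with Benjamini-Hochberg adjustment. Since scaled values hold no level, the presence of ovarian or any other cell type could not be checked from its markers. In bulk tissue, fewer cells of a type and less RNA per cell cannot be told apart.

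Of the 44 genes, 0 passed an adjusted p of 0.05, with adjusted p from 0.291 to 0.994 in limma, where 1 of all 21874 genes did (0.00457%). The 4 with an unadjusted p under 0.05 were Fst, Tgfb3 and Id1, which were lower with RU486, and Smad3, which was higher. These are 6.82% of the genes on the lower side and 2.27% on the higher side, against a background of 7.07% and 5.24% of all genes. All RU486 arrays lay below all placebo arrays for those 3 genes and for Bmp4, which is 9.09% of the set against 10.8% of all genes. Smad3 alone lay above, 2.27% against 11.2%. None of these shares stood above that of all genes. With arrays centred on their medians, 3 genes lay above (6.82%, against 6.22% of all genes), and after quantile normalization also 3 (against 5.78%). Without RU486 array 2 the groups parted on the lower side for 11 genes (25.0%, against 20.4% of all genes) and without placebo array 1 for 9 (20.5%, against 22.3%). On the higher side they parted for 7 without RU486 array 3 (15.9%, against 14.9%) and for 5 without placebo array 3 (11.4%, against 16.1%). Differences were negative for 24 genes and positive for 20, with a median of -0.22, beside -0.06 over all genes. Quantile normalization and centring each array on its median gave 24 and 23 negative differences.

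**Figure D1:**
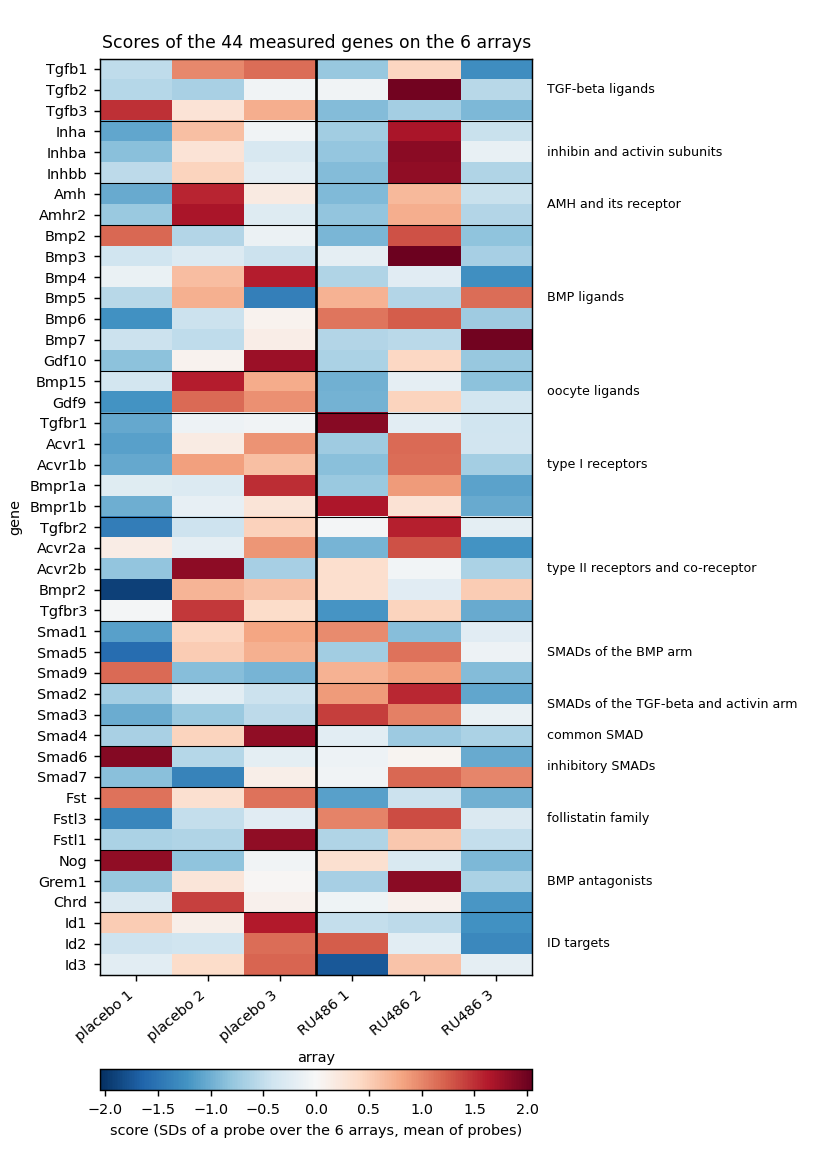
Scores of the 44 measured genes (rows, grouped by role) on the 3 placebo and the 3 RU486 arrays (columns), in units of each probe's SD, as the mean of a gene's probes. Red cells gather on RU486 array 2, which holds the highest score of 16 genes, and blue cells on placebo array 1, which holds the lowest of 18.

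Follistatin (Fst, Entrez gene 14313), the secreted protein that binds activins and keeps them from their receptors, had a difference close in size to that of Tgfb3, and no other of the 44 genes had a larger one. With arrays centred on their medians Smad3 was larger (1.67, against -1.58 for Fst), and with array weights Bmp15 was (-2.16, against -1.47). Its scores were 1.11, 0.325 and 1.12 on placebo arrays 1 to 3 and -1.11, -0.444 and -0.992 on RU486 arrays 1 to 3. All placebo values were positive and all RU486 values negative, with group means of 0.85 ± 0.455 and -0.85 ± 0.356 (SD, n = 3). The standardised difference was -1.70 (SE 0.333, limma adjusted p = 0.291). The unadjusted limma p was under 0.05 in each of the 6 fits that left out 1 array, with differences from -1.96 to -1.57. Leaving out an array cannot make separated groups overlap, so their separation in these fits is no further result.

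Its relative Fstl3, which also traps activin, had a difference of the opposite sign. Its scores were -1.33, -0.491 and -0.238 on the placebo arrays and 1.02, 1.34 and -0.296 on the RU486 arrays. RU486 array 3 lay within the placebo range, so the groups overlapped, and the difference was 1.38 (SE 0.601, limma adjusted p = 0.421). Fstl1, a secreted glycoprotein of stromal cells, had its highest score, 1.81, on placebo array 3 and from -0.651 to 0.548 elsewhere, with a difference of -0.37 (SE 0.894). On every array Fstl1 lay within 0.289 of the mean of 6 smooth muscle markers, whose mean on placebo array 3 was 1.72 and from -0.688 to 0.259 on the others. From the mean of 9 fibroblast and stroma markers Fstl1 departed by up to 0.764. The likeness to smooth muscle markers was noticed after the values were seen. The part of smooth muscle or stroma in the Fstl1 scores was not tested.

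Among the TGF-beta ligands, Tgfb3 (Entrez gene 21809) parted the groups. It scored 1.49, 0.288 and 0.74 on the placebo arrays and -0.891, -0.699 and -0.928 on the RU486 arrays. The RU486 values lay close together (SD 0.123) and below every placebo value (SD 0.608). The difference was -1.68 (SE 0.358, limma adjusted p = 0.302), and it ranged from -1.96 to -1.35 with 1 array left out, at an unadjusted p under 0.05 in all 6 of these fits. Tgfb3 and Fst, each measured by 1 probe, differed by at most 0.384 on any array. Both were singled out here for separated groups, and differences near the limit of 1.83 leave 2 scaled probes little room to differ. Their likeness is therefore no separate result.

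Tgfb1 scored -0.519, 0.992 and 1.14 on the placebo arrays and -0.775, 0.443 and -1.28 on the RU486 arrays. Both groups span positive and negative scores, and the difference of -1.08 (SE 0.737, adjusted p = 0.628 in limma) was within that spread. Tgfb2 was high on RU486 array 2 alone, at 1.97, with -0.663 to -0.0687 on the other 5 arrays. The 3 isoforms bind the same receptors, and their scores shared no pattern over the arrays.

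**Figure D2:**
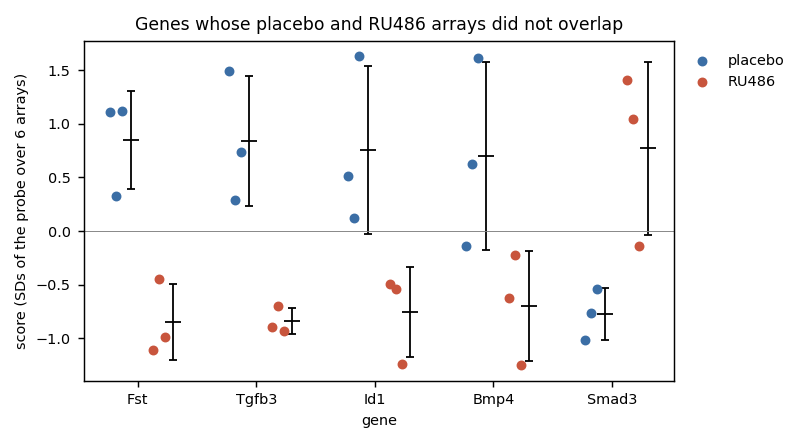
Scores of the 5 genes whose groups did not overlap, on each array (points), with the group mean and SD (black bars, n = 3), in units of the probe's SD. Fst, Tgfb3, Id1 and Bmp4 have all RU486 points below all placebo points, and Smad3 has them above, none of them past an adjusted p of 0.05.

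Inhibin and activin are dimers that share their beta subunits: inhibin joins the alpha subunit (Inha) to a beta subunit (Inhba or Inhbb), and activin joins beta subunits only. Inha scored -1.06, 0.62 and -0.0735 on the placebo arrays and -0.705, 1.67 and -0.455 on the RU486 arrays. Inhba followed with -0.864, 0.286 and -0.321 and then -0.796, 1.85 and -0.152. Inhbb had -0.535, 0.449 and -0.224 and then -0.885, 1.82 and -0.62. All 3 subunit genes were highest on RU486 array 2, and no pair of them differed by more than 0.522 on any array. The differences were 0.34 (SE 0.897), 0.60 (SE 0.862) and 0.21 (SE 0.907), with adjusted p from 0.811 to 0.938 in limma. Each turned negative without RU486 array 2, at -0.41, -0.17 and -0.65, and Inha and Inhbb also without placebo array 1, at -0.10 and -0.01. Fst, their extracellular partner, was -0.444 on that RU486 array.

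AMH, the granulosa cell hormone that holds back follicle recruitment, and its type II receptor gene resembled each other over the arrays. Amh scored -1.04, 1.56 and 0.186 on the placebo arrays and -0.901, 0.658 and -0.46 on the RU486 arrays. Amhr2 had -0.755, 1.67 and -0.257 and then -0.808, 0.747 and -0.6. Placebo array 2 was the highest for both and RU486 array 2 the next, and the groups overlapped, with differences of -0.47 (SE 0.882) and -0.44 (SE 0.886). Without placebo array 2 the Amh difference was 0.19. Means of 8 granulosa cell markers were -0.518, 0.687 and -0.0406 on the placebo arrays and -0.996, 0.494 and 0.373 on the RU486 arrays, with 3 lower and 5 higher in RU486. The part of granulosa cell content in the scores of Inha, Inhba, Inhbb and Amh was not tested.

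The oocyte ligands GDF9 and BMP15 act on granulosa cells. Gdf9 scored -1.22, 1.16 and 0.937 on the placebo arrays and -0.967, 0.464 and -0.38 on the RU486 arrays. Means of the egg coat genes Zp1, Zp2 and Zp3 on the same arrays were -1.20, 1.01 and 1.06 and then -0.863, 0.527 and -0.534. Gdf9 lay within 0.154 of them on every array. From the mean of all 10 measured oocyte markers, which include the Zp genes, Gdf9 departed by up to 0.651. Its placebo arrays spread more widely than its groups differed, by -0.59 (SE 0.864). Bmp15 scored -0.373, 1.61 and 0.755 on the placebo arrays and -0.979, -0.18 and -0.836 on the RU486 arrays. Only placebo array 1 overlapped the RU486 range, and the difference was -1.33 (SE 0.625, limma adjusted p = 0.457). Bmp15 departed from the Zp mean by up to 0.831, and from the mean of the 10 oocyte markers by up to 1.1. Of 10 oocyte markers 9 were lower in RU486, with a median of -0.55, and all 9 had overlapping groups. The other, Figla, was higher (1.49, SE 0.528) and had separated groups (10.0% of the list, against 11.2% of all genes). List means ranged from -0.881 to 0.945 in placebo and from -0.62 to 0.417 in RU486 arrays. The part of oocyte content in the Gdf9 and Bmp15 scores was not tested.

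**Figure D3:**
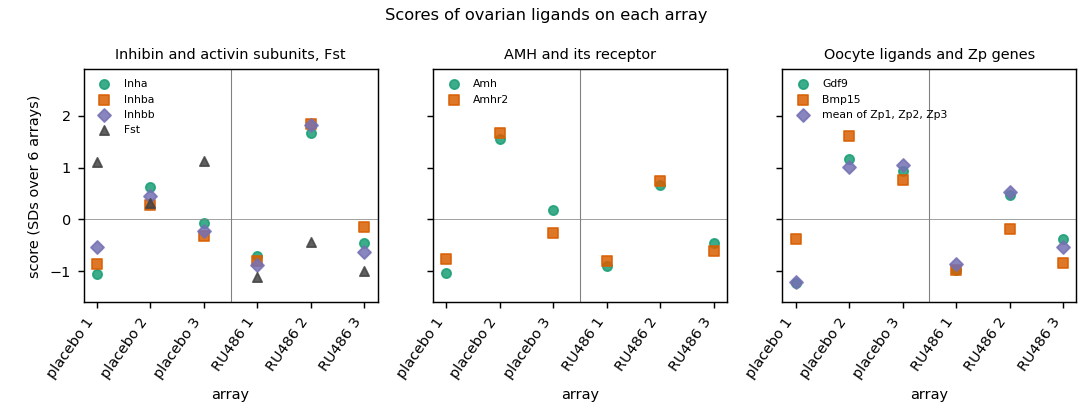
Scores on each array, in SDs over the 6 arrays, of the inhibin and activin subunit genes with Fst (left), Amh and Amhr2 (middle), and Gdf9 and Bmp15 with the mean of Zp1, Zp2 and Zp3 (right). The 3 subunit genes peak together on RU486 array 2, between 1.67 and 1.85. Gdf9 stays within 0.154 of the Zp mean, but departs by up to 0.651 from the mean of 10 oocyte markers (not drawn).

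Of the BMP ligands, Bmp4 (Entrez gene 12159), which theca and stromal cells make in the ovary, was the 1 with separated groups. It scored -0.138, 0.625 and 1.61 on the placebo arrays and -0.624, -0.227 and -1.25 on the RU486 arrays. The gap between the groups was narrow, from -0.227 to -0.138, and the difference of -1.40 had an SE of 0.587 (limma adjusted p = 0.406). Its unadjusted p was not under 0.05, and it was in 1 of the 6 fits that left out an array, that without placebo array 1. Bmp2 had 1.17, -0.602 and -0.115 and then -0.93, 1.31 and -0.829, with a high and 2 low arrays in each group and a difference of -0.30 (SE 0.9). Leaving out placebo array 1, RU486 array 1 or RU486 array 3 turned that sign, to 0.21, 0.09 and 0.04.

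The other 5 BMP ligands had overlapping groups, with differences from -0.66 for Gdf10 to 1.07 for Bmp6. Bmp3, a ligand that opposes other BMPs, had 2.01 on RU486 array 2 and -0.685 to -0.182 elsewhere. Bmp7, which theca cells make, had 1.97 on RU486 array 3 and at most 0.139 on any other. Both differences thus rest on a single RU486 array.

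No receptor gene had separated groups: 6 of 11 differences were negative and 5 positive, from -1.19 to 0.91. Tgfbr3, betaglycan, the co-receptor that presents TGF-beta2 and inhibin, lay lowest at -1.19 (SE 0.691, limma adjusted p = 0.551). It scored -0.0418, 1.45 and 0.381 on the placebo arrays and -1.21, 0.459 and -1.03 on the RU486 arrays, with RU486 array 2 inside the placebo range. Tgfbr2, the type II receptor of TGF-beta, was the most positive, at 0.91 (SE 0.791). Tgfbr1, its type I partner, was measured by 3 probes that agreed: each was highest on RU486 array 1, from 1.82 to 1.91, and lowest on placebo array 1, from -1.07 to -1.02. The BMP receptor genes Bmpr1a, Bmpr1b and Bmpr2 stood at -0.66, 0.61 and 0.42, with no shared direction. The activin receptor genes Acvr1b, Acvr2a and Acvr2b were all negative, at -0.27, -0.59 and -0.23, each with overlapping groups. Bmpr2 owed its spread to placebo array 1, at -1.92, against -0.239 to 0.701 on the others. The 2 probes of Acvr1, a type I receptor of BMPs and activins, gave 0.67 and -0.64, so their mean of 0.02 covers opposite signs, and those of Acvr1b gave 0.05 and -0.59.

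Of the 8 SMAD genes, 5 had positive differences. Smad3 (Entrez gene 17127), a direct substrate of the TGF-beta and activin receptors, scored -1.02, -0.76 and -0.537 on the placebo arrays and 1.41, 1.04 and -0.137 on the RU486 arrays. All RU486 arrays lay above all placebo arrays, with array 3 nearest to them. Its difference was 1.54 (SE 0.487, limma adjusted p = 0.39). The unadjusted p stayed under 0.05 only without RU486 array 3, and was lost without any of the other 5 arrays. The related Smad2 had 0.866, 1.55 and -1.06 on the RU486 arrays, the last below all placebo scores (-0.699 to -0.221), and a difference of 0.90 (SE 0.793).

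Smad7, the inhibitory SMAD that sends TGF-beta receptors to degradation, scored -0.849, -1.37 and 0.12 on the placebo arrays and -0.0778, 1.17 and 1.00 on the RU486 arrays. The groups overlapped at placebo array 3 and RU486 array 1, with a difference of 1.40 (SE 0.586, limma adjusted p = 0.406). With arrays centred on their medians, and after quantile normalization, its groups parted and its unadjusted p was under 0.05. Smad6, which acts mainly on the BMP arm, had 1.88 on placebo array 1 and at most 0.0548 elsewhere (difference -0.73, SE 0.837). Smad4, the partner of all receptor-activated SMADs, stood at -1.07 (SE 0.738) with 1.82 on placebo array 3. The BMP arm SMADs stayed near 0, with Smad1 at -0.09, Smad5 at 0.20 and Smad9 at 0.44, and the 2 Smad1 probes had opposite signs (-0.38 and 0.19).

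**Figure D4:**
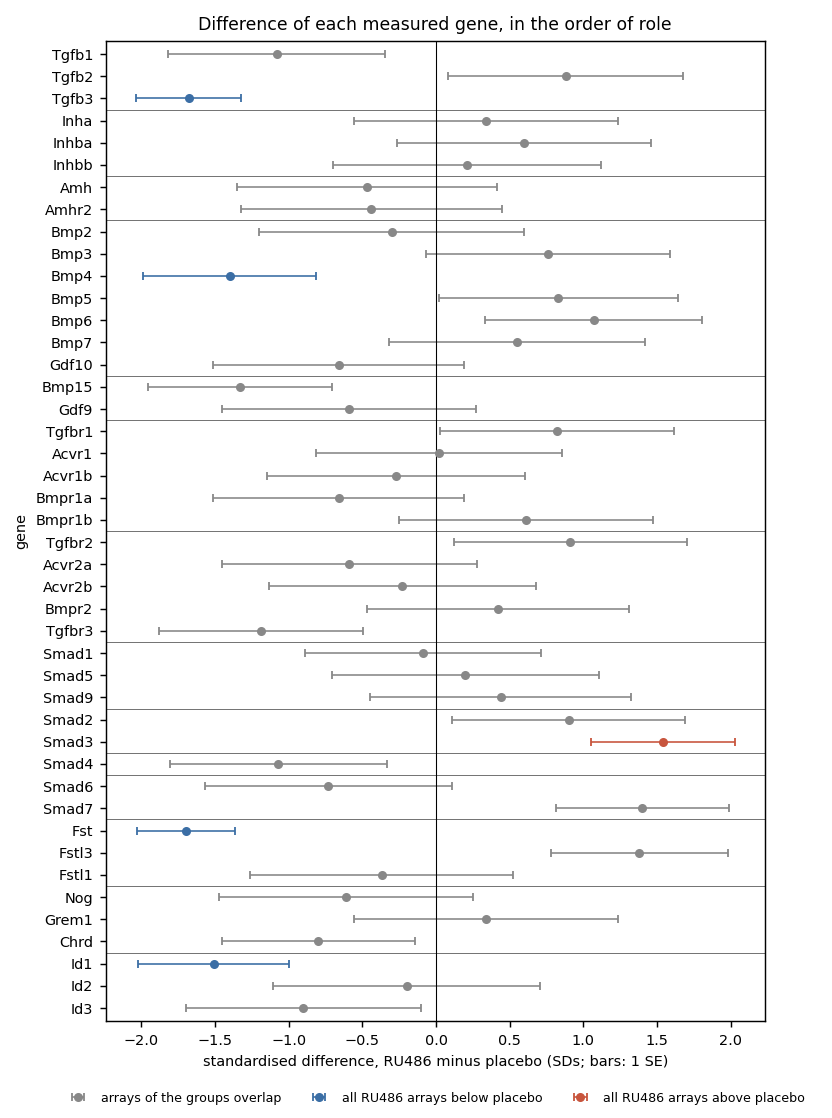
Standardised difference, RU486 minus placebo, of each measured gene (points, in units of a probe's SD, with bars of 1 SE), in order of role. The 4 genes with all RU486 arrays below placebo, from -1.70 to -1.40, and Smad3 above, at 1.54, are coloured, and the other 39 have overlapping groups.

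The secreted BMP traps had overlapping groups. Nog (noggin) had its highest score on placebo array 1, at 1.81, and -0.924 to 0.326 on the others (difference -0.61, SE 0.86). Red cell markers were also high on that array, with a mean of 1.39 over 4 genes and from -0.492 to -0.134 on the other arrays, and their part in the Nog and Smad6 scores was not tested. Grem1 (gremlin), a BMP antagonist that granulosa cells make in follicles, resembled the inhibin subunits, with 1.85 on RU486 array 2 and a difference of 0.34 (SE 0.897). RU486 array 2 held the highest score of 23.1% of all genes, and the likeness was not tested. For Chrd (chordin) the 2 probes gave -0.30 and -1.29, and their mean was -0.80 (SE 0.654).

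ID proteins are helix-loop-helix factors without a DNA-binding domain, and BMP signals induce their genes through SMAD1 and SMAD5. Id1 (Entrez gene 15901) scored 0.517, 0.118 and 1.63 on the placebo arrays and -0.49, -0.539 and -1.24 on the RU486 arrays. Every RU486 score was negative and every placebo score positive, and the difference was -1.51 (SE 0.513, limma adjusted p = 0.39). The unadjusted p stayed under 0.05 only without placebo array 2. Id3 was negative as well, at -0.90 (SE 0.795), with -1.74 on RU486 array 1 and 0.581 on RU486 array 2. Id2 had no shared direction within either group, with -0.427, -0.416 and 1.15 on the placebo arrays and 1.24, -0.224 and -1.32 on the RU486 arrays, and stood at -0.20 (SE 0.907). All 3 ID differences were thus negative, and Id1 alone had separated groups.

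Marker lists of some other cell types parted the arrays the same way as Fst, Tgfb3, Id1 and Bmp4. Means of 7 neutrophil markers, 6 of them lower in RU486, ranged from 0.0425 to 0.75 in placebo and from -0.532 to -0.148 in RU486 arrays. S100a8, S100a9 and Retnlg were lower with separated groups (42.9% of that list, against 10.8% of all genes). Means of 7 T and NK cell markers, 5 of them lower, ranged from 0.0865 to 0.449 and from -0.495 to -0.082. Endothelial markers were lower for 9 of 10 genes, with list means that overlapped (-0.254 to 0.97 and -1.18 to 0.572). Of these, Vwf had separated groups (-1.50, SE 0.482), 10.0% of the list. Fibroblast and stroma markers differed little, with a median difference of -0.10 over 9 genes. B and plasma cell markers were lower for 4 of 5 genes, with the most negative median of these lists (-1.31), and Cd79a had separated groups (-1.63, SE 0.302). Their list means overlapped, from -0.164 to 1.29 in placebo and from -0.697 to 0.109 in RU486 arrays. All 6 smooth muscle markers were lower, with a median of -0.42, and Myh11 had separated groups (-1.78, SE 0.209), 16.7% of the list. The other 5 had overlapping groups, each with its highest score on placebo array 3, from 1.68 to 1.94. Means of the list were -0.442 and -0.398 on placebo arrays 1 and 2, inside the RU486 range of -0.688 to 0.259. Red cell markers were lower for 3 of 4 genes, with a median of -1.02. Those 3 had separated groups (75.0%, against 10.8% of all genes), each with its highest score on placebo array 1. The gap between groups was narrow: Hbb-b1 had -0.422 on placebo array 2 and -0.51, -0.495 and -0.527 on the RU486 arrays. List means of theca and luteal cells, epithelium and macrophages overlapped between the groups. Cd163 among macrophage markers and Kitl among granulosa cell markers were higher with separated groups (12.5% of each list, against 11.2% of all genes). The part of these cell types in the pathway genes was not tested.

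Other genes of the pathway were described from lists of further ligands, receptors, extracellular regulators, intracellular regulators and targets. Of 83 measured, 0 passed over all genes in limma, and at an unadjusted p under 0.05 there were 7 lower (8.43%) and 3 higher (3.61%), beside 7.07% and 5.24% of all genes. Groups did not overlap in 13 on the lower side (15.7%, against 10.8%) and in 4 on the higher side (4.82%, against 11.2%). The 8 of smallest p had adjusted p from 0.231 to 0.39 in limma.

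Of these 8, those with lower scores were Nedd4l (-1.76, SE 0.237), a ubiquitin ligase of activated SMAD2 and SMAD3, Lrrc32 (-1.74, SE 0.27), which holds latent TGF-beta at the cell surface, and the ligand genes Bmp10 (-1.74, SE 0.273) and Bmp8a (-1.69, SE 0.351). Wwp1 (-1.64, SE 0.403), a ligase that works with SMAD7 on the TGF-beta receptor, and Furin (-1.61, SE 0.435), the protease that cuts ligand precursors, were lower too. Higher scores were found for Tgif1 (1.64, SE 0.403), a corepressor of SMADs, and Rgmb (1.11, SE 0.216), a BMP co-receptor whose 2 probes gave 0.71 and 1.5. Nedd4l scored 0.698, 0.96 and 0.987 on the placebo arrays and -0.758, -0.581 and -1.31 on the RU486 arrays, with each group on its own side of 0. In the list of 17 transcriptional targets, 9 were lower and 8 higher, with a median of -0.05 and 0 at an unadjusted p under 0.05. Groups did not overlap for 3 of these targets on the lower side (17.6%, against 10.8% of all genes), Atoh8, Dlx5 and Sphk1, from -1.40 to -1.29, and for 0 on the higher side. These 3 were named after their values were seen.

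Single arrays held the extreme scores of many genes. RU486 array 2 had the highest score of 16 of the 44 genes (36.4%), compared with 23.1% of all genes. Among these were the 3 subunit genes, Grem1, Bmp2, Bmp3, Bmp6, Tgfb2, Tgfbr2, Acvr2a, Smad2 and Smad7. Placebo array 1 had the lowest score of 18 genes (40.9%, against 24.2% of all genes), among them Inha, Amh, Gdf9, Tgfbr1, Bmpr2 and Smad5. RU486 array 3 had the lowest score of 13 genes (29.5%, against 14.4%), among them Tgfb1, Tgfb3, Bmp4 and Id1. These shares were described after the values were seen and carry no test, since genes on an array share its RNA.

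**Figure D5:**
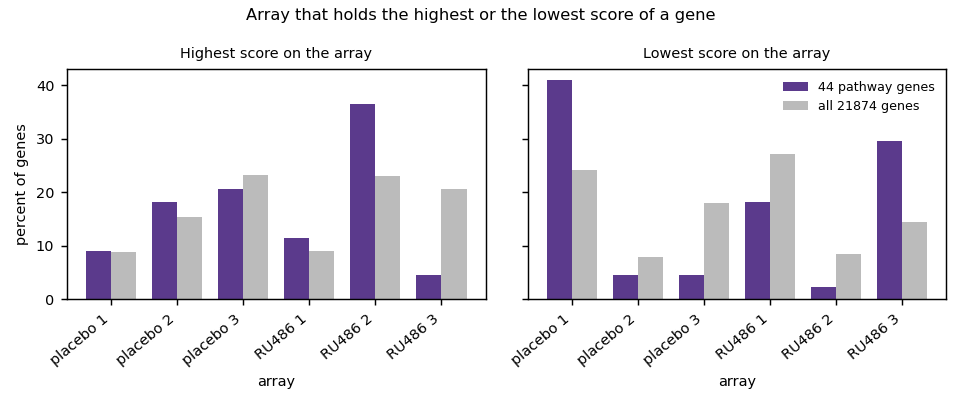
Percent of the 44 pathway genes (purple) and of all 21874 genes (grey) whose highest (left) or lowest (right) score lies on each array. RU486 array 2 holds the highest score of 36.4% of the pathway genes and placebo array 1 the lowest of 40.9%.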

How the data were processed

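Total RNA of 6 tumour samples was labelled with Cy3 for 1-colour arrays, per the labels' protocols. The deposited values are scores of 37932 probes, each centred and scaled over the 6 arrays, as found from the values (probe means within 2.5e-06 of 0, SDs from 0.999997 to 1.00). Partek was used, with no version, per the submitters' processing notes; background correction, normalization, log scale, probe filters and direction: not given in the sources used here, and signal over background is unknown.

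Platform annotation gave 24903 probes 1 gene symbol. The other 13029 had no single symbol (none or several, not counted apart) and were left out of the gene scores. Averaging the scores of a gene's probes left 21874 genes. Groups and replicate numbers came from the sample titles. limma 3.58.1 in R 4.3.3 fitted treatment over all 6 arrays. The ordinary two-sided statistic (4 residual degrees of freedom) was used because scaling of a single probe does not change it. That was tested on simulated data with 1 row per gene. For the 2646 genes with more probes, scaling before averaging can change the statistic, and the simulation did not cover them. The Benjamini-Hochberg adjustment ran across every measured gene, at 0.05. The 3 arrays per group limit the precision.

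Members, lists and motifs were chosen with earlier results of these data known. Values on every array are given for members at an unadjusted p under 0.05 or with separated groups, and for a panel of ovarian and signalling genes; of other pathway genes the 8 of smallest p under 0.05 are named. Genes outside that rule were added as illustrations after their values were seen. Alternatives were the first probe, single probes, median centring, quantile normalization, eBayes, array weights, a replicate block and leaving out each array. Same-numbered arrays had deviations that correlated at 0.254, 0.0539 and -0.272 over genes, and differently numbered arrays at -0.36 to 0.357. These correlations cannot settle whether the numbers mark pairs. The main fit did not use the numbers as pairs, and the replicate block is the alternative that does.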

Additional observations from a re-analysis of the deposited data

How the results depend on the processing

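In the 11 alternatives on gene scores that keep treatment alone and in the fit with the replicate block, 0 of the 44 genes passed over all genes, and 0 of their 50 probes when each probe was tested by itself. Named genes had adjusted p from 0.0863 to 0.998 over these fits. Median centring, quantile normalization, eBayes and the replicate block passed 0.0% of all genes, so their 0 tells nothing about the 44 genes in particular. With eBayes, Fst, Tgfb3, Id1, Smad3 and Bmp4 all had an SE of 0.757. As a probe's difference cannot pass 1.83, that fit had little room to pass any gene. The block and the fits without an array have fewer residual degrees of freedom than the main fit. Array weights put 6 lower and 2 higher genes at an unadjusted p under 0.05 (13.3% and 12.6% of all genes), and the placebo array 2 weight was 4.97 against 0.342 for RU486 array 2. With the replicate block the counts were 1 and 0 (5.1% and 1.92% of all genes), and that gene was Tgfbr3; Fst, Tgfb3, Id1 and Smad3 had unadjusted p from 0.053 to 0.158 in limma. Median centring and quantile normalization gave 4 lower (9.09% of the 44, against 6.82% and 7.69% of all genes) and 2 higher (4.55% of the 44, against 3.1% and 2.73% of all genes). Smad3, Smad7 and Fstl3 had separated groups on the higher side (6.82%, against 6.22% and 5.78%). These shares lay close to those of all genes, since 1 gene makes 2.27% of the 44. Centring shifted the median of all genes by 0.121, and the lower share of genes at an unadjusted p of 0.05 was 57.4%, 68.7% when centred and 73.8% when quantile normalized. With 1 array left out, 2 to 4 genes were lower (all genes 4.59% to 8.97%) and 0 to 4 higher (all genes 1.66% to 10.5%) at that p. Separated groups were found for 4 to 11 genes on the lower side and 1 to 7 on the higher. The 11 came without RU486 array 2, 9 without placebo array 1, and on the higher side 7 without RU486 array 3 and 5 without placebo array 3. The 4 higher genes (9.09%, against 2.64% of all genes) came without RU486 array 3, and the count was 0 without placebo array 1 or 2 or RU486 array 1 or 2. Of 14 named genes, 9 kept their sign in all 12 alternatives. The first probe, eBayes and the replicate block could not turn a sign, since each named gene has 1 probe and every replicate number occurs in both groups. Leaving out an array cannot turn the sign of a gene with separated groups. That part of the count was fixed in advance. Array weights turned Inha to -0.69, Inhba to -0.30 and Inhbb to -0.71. Leaving out single arrays gave ranges of -0.41 to 0.78 for Inha, -0.17 to 1.15 for Inhba, -0.65 to 0.70 for Inhbb, -1.11 to 0.19 for Amh and -1.03 to 0.21 for Bmp2. The cause of these shifts was not tested.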
